A study of Mus musculus with 14 samples.

Results

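The genes described here mark macrophages, and among them the Kupffer cells, the macrophages that live in the liver sinusoids. They were chosen as the rows of the authors' 5-week results table whose gene symbol was on a list of 36 macrophage and Kupffer cell genes. Of these, 34 were found among the 12890 genes that the table names, each with 1 probe set. Aif1 and Tlr4 were not found and are not analysed here. Below, a gene is called measured if that table names it. Others may be on the array, so shares of measured genes cover only genes that the authors kept. Liver RNA of male mice at 5 weeks of age was hybridised to Affymetrix whole-transcript arrays. The 2 control samples carried floxed miR-122 alleles (miR-122loxP/loxP), although their titles call them wild type. The 2 knockout samples are labelled miR-122loxP/loxP Alb-Cre, which names a recombinase under the albumin promoter, active in hepatocytes, while the series description has this knockout in the germ line. Whether macrophages kept the miR-122 gene therefore cannot be read from the labels. By their genotype labels both groups carried the floxed alleles, and both have the 57/BL6J background as the labels spell it; the labels do not say whether each sample came from a separate mouse. Another 10 samples of 8-week livers, 5 of each genotype, were not analysed here, because no table used here names the genes of that array.

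miR-122 is the most abundant microRNA of hepatocytes, and macrophages do not make it in quantity. Kupffer cells clear bacteria, complement-coated particles and dying cells from portal blood through scavenger, lectin and complement receptors. They settle in the liver before birth and renew themselves there, and monocytes from the blood can replace them after injury. Recruited monocytes first carry general myeloid genes and gain the resident genes, such as Clec4f and Timd4, only later. The comparison therefore sets resident Kupffer genes beside genes that many myeloid cells use. In whole-liver RNA, more cells of a type and more RNA per cell cannot be told apart.

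Every one of the 34 measured genes had a higher mean in the knockout livers, with a median log2 difference (knockout mean minus control mean of log2 signals) of 0.92, about a doubling of signal. The median over the 12890 named genes was 0.005, and 51.1% of them had a higher knockout mean. In 31 of the 34 genes both knockout arrays lay above both control arrays, which held for 32.1% of named genes and 19.1% of all features. In none did both knockout arrays lie below, which held for 27% and 27.8%. At least a 2-fold difference was reached by 13 of the 34, against 3.1% of named genes. The differences ran from 2.11 for Cybb, the catalytic chain of the phagocyte oxidase, down to 0.17 for Mrc1, the mannose receptor.

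With 2 arrays per genotype, whether these genes passed a test depended on the rows tested. When limma was fitted to all 33538 features of the value table, no member passed at an adjusted p under 0.05 (Benjamini-Hochberg), nor did any other feature (0%). The members' adjusted p ran from 0.0509 to 0.752, and 20 of them lay under 0.1. At an unadjusted p under 0.05, 29 of the 34 were higher, against 8.24% of all features and 16.2% of named genes. None was lower, against 7.55% and 8.33%. When limma was fitted only to the 12978 features of the rows that the authors had kept, 26 of the 34 passed as higher and none as lower, against 10.6% of those features called higher and 4.1% called lower. The rule that kept these rows is not given, so whether some members were kept through their knockout values cannot be told. The p-values of the authors' deposited table, adjusted over the named genes, also gave 26 members higher and none lower, against 9.67% and 3.71% of named genes. With dim features left out, limma called 20 of the 22 members left as higher, against 7.78% of features higher and 4.03% lower. Of those 22, Cd52 and Ptprc were left only through their knockout values, and 18 of the other 20 were called. With the trend and robust settings over all features it called 16 of 34 higher, against 1% higher and 0.256% lower. With any single array left out, 1 genotype had 1 sample, assumed to vary like the other pair, and no feature passed over all features or over the kept rows; such fits say nothing particular of the members. The adjusted p-values below are those of the fit to the authors' kept rows unless stated, and "passed" refers to that fit. Standard errors (SE) and 95% intervals are from the fit to all features. Every such call stands at an adjusted p of at least 0.0509 in limma over all features. Counts of genes that passed stand beside 10.6% of kept features called higher and 4.1% called lower. Counts of non-overlapping groups stand beside 32.1% (knockout above) and 27% (knockout below) of named genes.

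**Figure D1:**
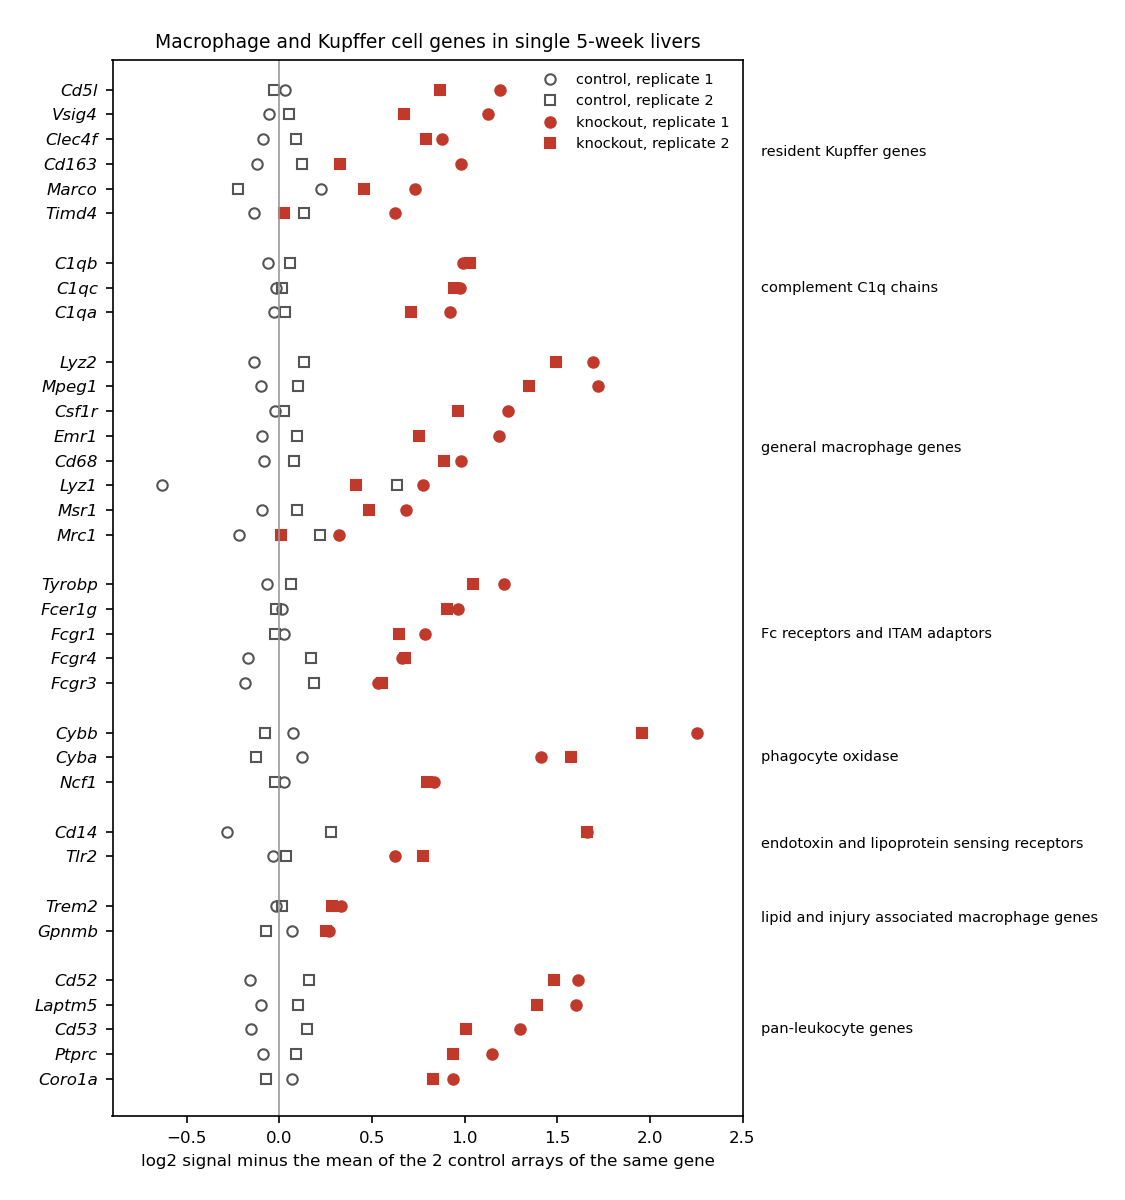
Log2 signal of each of the 34 genes in each array minus the mean of both control arrays of that gene (x axis), with genes in rows grouped by role; open symbols are control livers and filled symbols knockout livers, circles replicate 1 and squares replicate 2. In 31 genes both filled symbols lie to the right of both open symbols; the exceptions are Timd4, Lyz1 and Mrc1.

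Background on these arrays was gauged from 47 smell and taste receptor genes among the kept rows, which liver is not known to use. Their mean log2 signals had a median of 5.96 and a 95th percentile of 6.96. Such genes outside the kept rows have no names here, so this background may be set too high. The median of all features was 5.78 to 5.82 across the arrays. Hepatocyte markers were clearly present in these livers: none of 17 had a mean under 6.96 in either genotype. Of the 34 macrophage genes, 14 had a control mean under 6.96, with a median log2 difference of 0.69, against 0.99 for the other 20. Replicates correlated at 0.985 for controls and 0.99 for knockouts over all features, and arrays of different genotype at 0.978 to 0.98. The loss of miR-122 was not checked, because none of the named genes is miR-122.

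Among the resident Kupffer genes, Cd5l, a secreted protein that macrophages release, had log2 signals of 8.65 and 8.59 in controls and of 9.81 and 9.49 in knockouts. Vsig4, the complement receptor with which Kupffer cells capture coated particles, stood at 10.13 and 10.24 in controls and at 11.31 and 10.86 in knockouts. Clec4f, a lectin that in mouse marks Kupffer cells, stood at 9.28 and 9.46 in controls and at 10.25 and 10.16 in knockouts. In these 3 genes the groups did not overlap, and each passed. Their log2 differences were 1.03 (SE 0.15, adjusted p = 0.00843), 0.90 (SE 0.19, adjusted p = 0.0201) and 0.84 (SE 0.13, adjusted p = 0.00953) in limma.

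The other 3 resident genes did not pass in limma. In each the knockout livers differed between themselves, as they also did in Vsig4 and Cd5l, which passed. For Marco the control livers lay further apart than the knockout livers. Cd163, the scavenger receptor for haemoglobin bound to haptoglobin, was at 6.37 and 6.61 in controls, 7.47 in knockout replicate 1 and 6.82 in knockout replicate 2, a difference of 0.66 (adjusted p = 0.107). Marco, a scavenger receptor for bacteria, was at 5.76 and 5.31 in controls and at 6.27 and 5.99 in knockouts, a difference of 0.60 (adjusted p = 0.0824) near background. Timd4, the phosphatidylserine receptor of long-resident Kupffer cells, was at 7.01 and 7.28 in controls, 7.77 in knockout replicate 1 and 7.17 in knockout replicate 2. Its groups overlapped, and its difference of 0.33 (adjusted p = 0.365) had a 95% interval of -0.31 to 0.96.

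All 6 resident genes were higher in knockout replicate 1 than in replicate 2. Relative to the control mean of each gene, they averaged 0.92 in the former and 0.52 in the latter, while the 28 other genes averaged 1.06 and 0.92. The median log2 difference was 0.75 for the resident genes and 0.95 for the others, a gap of -0.20 that was not tested, since the genes were chosen with results known. That gap was -0.05 without knockout replicate 2 and -0.33 without knockout replicate 1, so its size rests on which knockout liver is read. Over all 34 genes, knockout replicate 1 was the higher in 28.

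**Figure D2:**
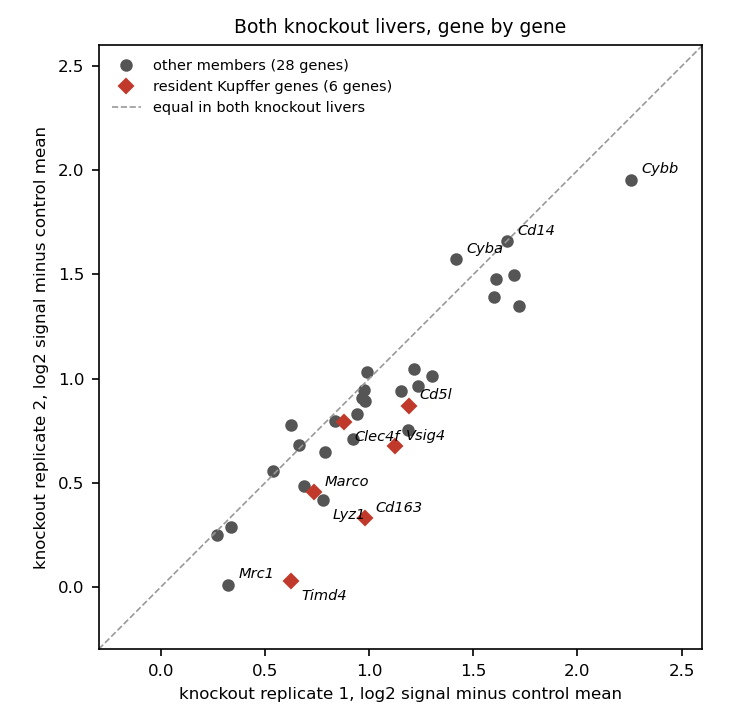
Log2 signal minus the control mean of the same gene in knockout replicate 1 (x axis) and knockout replicate 2 (y axis), 1 point per gene; diamonds are the 6 resident Kupffer genes, circles the other 28, and the dashed line marks equal values. All 6 diamonds lie below the line, with Cd163 and Timd4 farthest from it, while Cd14 lies on it.

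The 3 chains of C1q, the complement starter that macrophages secrete as a mixed multimer, were higher by similar amounts. C1qb stood at 10.08 and 10.20 in controls and at 11.13 and 11.17 in knockouts, C1qc at 9.23 and 9.26 against 10.22 and 10.19, and C1qa at 7.70 and 7.76 against 8.65 and 8.44. In none of the 3 did the groups overlap. Their log2 differences of 1.01 (SE 0.12), 0.96 (SE 0.11) and 0.82 (SE 0.13) all passed in limma (adjusted p = 0.00465, 0.00465 and 0.0105).

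The general macrophage genes spread widely. Lyz2, the lysozyme of macrophages, was at 8.85 and 9.12 in controls and at 10.68 and 10.48 in knockouts, a difference of 1.595 (SE 0.15, adjusted p = 0.00309 in limma). Mpeg1, a pore-forming protein of phagosomes, was at 7.17 and 7.37 in controls and at 8.99 and 8.62 in knockouts, a difference of 1.54 (SE 0.18, adjusted p = 0.0043 in limma). Both groups were well apart in these genes. Csf1r, the receptor through which CSF1 and IL-34 keep macrophages alive, was at 8.22 and 8.27 against 9.48 and 9.21, a difference of 1.10 that passed. Emr1 (now Adgre1), an adhesion receptor of mouse macrophages, differed by 0.97 and Cd68, a lysosomal membrane glycoprotein, by 0.94, and both passed. Msr1, the class A scavenger receptor, was at 7.86 and 8.05 in controls and at 8.64 and 8.44 in knockouts, and passed with a smaller difference of 0.59.

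Lyz1 and Mrc1 were the general macrophage genes that did not pass. Lyz1 lay at 5.19 and 6.46 in controls and at 6.60 and 6.24 in knockouts, so the groups overlapped; it is a close paralog of Lyz2, and which of them a probe reads is uncertain. Mrc1 lay at 8.22 and 8.66 in controls and at 8.76 and 8.45 in knockouts, and its 95% interval ran from -0.38 to 0.71. Sinusoidal endothelium also carries Mrc1, and the 15 endothelial markers had a median log2 difference of 0.08, with none passing as higher and Lyve1, a hyaluronan receptor, passing as lower (-0.80, adjusted p = 0.0128 in limma). The summed signal of the endothelial markers was 8924 and 9082 in controls and 9363 and 9244 in knockouts; their part in the Mrc1 value was not tested. Without control replicate 1, the Lyz1 and Mrc1 differences turned to -0.04 and -0.06.

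Among Fc receptors and signalling adaptors that carry immunoreceptor activation motifs, all 5 genes had non-overlapping groups, against 32.1% of named genes with both knockout arrays above. Of the 5, 4 passed as higher, against 10.6% of kept features. Tyrobp, the adaptor also called DAP12, was at 7.79 and 7.92 in controls and at 9.07 and 8.90 in knockouts, a difference of 1.13. Fcer1g, the common gamma chain, was at 8.31 and 8.28 against 9.26 and 9.20, a difference of 0.94. The receptors themselves differed less, by 0.72 for Fcgr1, which binds single antibodies with high affinity, by 0.67 for Fcgr4 and by 0.55 for Fcgr3. Fcgr3 did not pass (adjusted p = 0.0586 in limma), and all 3 receptors had control means under 6.96.

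The phagocyte oxidase, which makes superoxide in phagosomes, held the largest difference of all members. Cybb, its catalytic chain, was at 8.06 and 7.91 in controls and at 10.24 and 9.94 in knockouts, a 4.30-fold difference with a 95% interval of 3.25 to 5.70. Cyba, the membrane partner of Cybb, was at 7.86 and 7.61 against 9.15 and 9.31, a log2 difference of 1.495 (95% interval 1.11 to 1.88). Ncf1, the cytosolic organiser, was at 6.29 and 6.24 against 7.10 and 7.06, a difference of 0.82 (95% interval 0.53 to 1.10). All 3 passed in limma (adjusted p = 0.00169, 0.00311 and 0.00717). Of the oxidase genes outside the member list, Ncf4 differed by 0.53 and the GTPase Rac2 by 0.91, and both passed.

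Of the receptors for endotoxin and bacterial lipoproteins, Cd14 stood at 5.73 and 6.29 in controls and at 7.67 in both knockouts, a difference of 1.66 (SE 0.21, adjusted p = 0.00545 in limma). Tlr2 stood at 6.32 and 6.39 in controls and at 6.98 and 7.13 in knockouts, a difference of 0.70 (SE 0.12, adjusted p = 0.0129 in limma). Both control means lay under 6.96, within the range of background. Trem2, a lipid receptor, and Gpnmb, a glycoprotein of lipid-laden and injury-associated macrophages, differed by only 0.31 (adjusted p = 0.099 in limma) and 0.26 (adjusted p = 0.17 in limma). Trem2 lay at 6.37 and 6.40 against 6.72 and 6.67 and Gpnmb at 5.83 and 5.69 against 6.03 and 6.01, so both were under 6.96 in all 4 livers although neither had overlapping groups.

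All 5 pan-leukocyte genes passed as higher, against 10.6% of kept features. In all 5 both knockout arrays lay above both control arrays, against 32.1% of named genes. Cd52, a small surface glycopeptide, was at 6.46 and 6.78 in controls and at 8.23 and 8.10 in knockouts, a difference of 1.55. Laptm5, a lysosomal membrane protein, was at 7.60 and 7.80 against 9.30 and 9.09, a difference of 1.495. Cd53, a tetraspanin, differed by 1.16, Ptprc, the CD45 phosphatase, by 1.05 and Coro1a, an actin regulator, by 0.89. These genes are also used by lymphocytes and granulocytes. Only 7 of 15 T and NK cell markers were named in the kept rows. All 7, Cd3e and Cd8a included, had means under 6.96 in both genotypes. Their summed signal was 479 and 470 in controls and 560 and 481 in knockouts. Of 9 B cell markers 2 were measured, with summed signals of 186 and 196 against 263 and 217. None of these lymphocyte markers passed.

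Neutrophil markers moved with the members. Of 13 such markers 5 were measured, and all 5 control means lay under 5.96. S100a8 was kept only through its knockout mean, being at 5.0 and 4.56 in controls and at 6.96 and 6.37 in knockouts, and is given with no test. The other 4 passed as higher, with a median log2 difference of 1.14. Among them was the receptor gene Csf3r (1.18). Their control levels leave the sizes uncertain. Of 8 dendritic cell markers 6 were measured and 3 passed as higher, among them Siglech (0.94) and Cd209a (0.74), with summed signals of 408 and 424 against 612 and 536. Zbtb46 (-0.09) and Ccr7 (-0.12) had both knockout arrays below both control arrays and did not pass, and all 6 had means under 6.96 in both genotypes. The part of these cells in the members' differences was not tested.

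Cybb, chrX:9469325-9469574, minus strand: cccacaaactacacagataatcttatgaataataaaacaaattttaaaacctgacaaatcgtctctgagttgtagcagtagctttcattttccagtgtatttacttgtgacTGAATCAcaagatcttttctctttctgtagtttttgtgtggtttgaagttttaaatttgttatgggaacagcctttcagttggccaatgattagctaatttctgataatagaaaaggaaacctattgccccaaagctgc
C1qb, chr4:136886201-136886450, minus strand: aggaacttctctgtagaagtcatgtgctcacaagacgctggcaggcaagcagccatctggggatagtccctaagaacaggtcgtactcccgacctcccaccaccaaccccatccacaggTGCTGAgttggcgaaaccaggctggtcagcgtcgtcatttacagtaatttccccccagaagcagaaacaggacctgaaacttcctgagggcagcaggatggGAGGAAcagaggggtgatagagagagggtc
Clec4f, chr6:83656117-83656366, minus strand: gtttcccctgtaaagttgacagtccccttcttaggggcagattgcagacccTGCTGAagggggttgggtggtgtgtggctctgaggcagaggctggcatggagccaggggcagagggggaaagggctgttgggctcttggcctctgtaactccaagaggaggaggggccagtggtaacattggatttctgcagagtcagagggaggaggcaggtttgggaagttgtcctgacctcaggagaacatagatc
Mrc1, chr2:14229164-14229413, plus strand: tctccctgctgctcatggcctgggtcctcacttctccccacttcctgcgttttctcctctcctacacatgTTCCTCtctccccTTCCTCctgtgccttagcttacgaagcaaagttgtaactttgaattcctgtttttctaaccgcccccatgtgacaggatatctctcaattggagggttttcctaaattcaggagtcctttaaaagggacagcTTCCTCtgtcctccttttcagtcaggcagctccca
These are the 250 bases before the transcript start (RefSeq, GRCm38.p6, 5′ to 3′ on the gene's strand) of the member with the largest difference, of a C1q chain, of the lectin of Kupffer cells and of the member with the smallest difference. They are shown because the members differed in the same direction but by unlike amounts, and were picked after the motif counts were seen. Capitals mark 3 motifs of macrophage factors on either strand: GAGGAA, the core of PU.1 sites, the AP-1 site TGANTCA and TGCTGA, part of Maf sites. No marked base fell in more than 1 motif. C1qb held 1 PU.1 core and 1 Maf match, Clec4f 1 Maf match, Cybb 1 AP-1 match and Mrc1 3 PU.1 cores. Promoters were listed for 27 of the 34 members. Of those 27, 14 held the PU.1 core in at least 1 promoter (15 of 30 promoters), against 23.3% of 32851 promoters in the table. The Maf letters were in 9 of the 30 against 16.1%, and the AP-1 letters in 3 of the 30 against 6.7%. A match describes letters in the window and does not show that a factor binds there.

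Lists of further genes linked to myeloid cells, some of them also used by other liver cells, leaned the same way. These lists too were chosen with earlier results of these data known, so they are no independent support. Of all kept features, 10.6% passed as higher and 4.1% as lower. In the list of further Kupffer genes, 8 of 13 measured passed as higher and none as lower, with a median of 0.54. The heme oxygenase gene Hmox1 was at 7.71 and 7.48 in controls and at 9.18 and 9.26 in knockouts, a difference of 1.63 (adjusted p = 0.00257 in limma). Slc11a1, a metal transporter of phagosomes (1.0), Axl, a receptor kinase for dying cells (0.90), and Il18bp, which binds interleukin-18 (0.56), also passed. Spic, a transcription factor of iron-recycling macrophages, was at 5.49 and 5.28 against 6.12 and 5.33 and did not pass. While 11 of the 13 had a higher knockout mean, Nr1h3 and Cd207 had a lower one, and neither passed. Nr1h3 was at 9.74 and 9.38 against 9.18 and 9.35 (-0.295), with both knockout arrays below both control arrays. Cd207 differed by -0.115 with overlapping groups.

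Of the 10 monocyte and recruited macrophage genes measured, Ccr2 had a control mean under 4.94, the lowest value that the higher group mean takes in the kept rows, and so was kept only through its knockout mean. This chemokine receptor, which brings monocytes out of the marrow, was at 4.83 and 4.74 in controls and at 6.36 and 5.99 in knockouts, and is given with no test. Among the other 9 genes, 6 passed as higher and none as lower, with a median of 0.82. The fractalkine receptor Cx3cr1 differed by 0.99. Plac8 (1.31) and the integrin Itgax (0.87) also passed, but from control means under the background median of 5.96, so the sizes of these differences are uncertain. Fn1, which hepatocytes also make in quantity, differed by 0.00. The near-identical Ly6c1 and Ly6c2, whose signals probes may share, differed by 0.82 and 0.62, and only the former passed.

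In the list of lipid-associated macrophage genes, 7 of 11 measured passed as higher and none as lower, with a median of 0.87. Spp1, osteopontin, stood at 7.81 and 8.11 against 11.11 and 11.28, a difference of 3.24, and the tetraspanin Cd63 at 6.38 and 6.79 against 9.45 and 9.16, a difference of 2.72. Lpl, lipoprotein lipase, differed by 1.35. Bile duct cells also use Spp1: the other 9 measured cholangiocyte markers had a summed signal of 1063 and 1341 in controls and 2190 and 2324 in knockouts, and 6 of the 9 passed as higher. Of those that passed, 3 had control means under 5.96, so the sizes of their differences are uncertain. The keratin genes Krt7 (0.10) and Krt19 (-0.32), which define bile ducts, had overlapping groups and did not pass. Both had means under 6.96 in both genotypes, within the range of background, so little can be read from them. The part of bile duct cells in the Spp1 value was not tested. Trem2 and Gpnmb, which mark the same macrophage state, differed by 0.31 and 0.26 as given above.

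Integrins, lectins and further Fc receptor and oxidase genes passed as higher in 8 of 10 measured and as lower in none, with a median of 0.82. The integrin chain Itgb2 differed by 1.15. The fungal lectin receptor Clec7a (1.26) and the integrin chain Itgam (1.19) had control means under 5.96, so their sizes are uncertain, while Fcgr2b, the inhibitory Fc receptor that sinusoidal endothelium carries, differed by 0.11 (adjusted p = 0.672 in limma). Of 21 measured myeloid transcription and signalling genes, 13 passed as higher and none as lower, with a median of 0.64. Vav1 (1.12), Plek (1.10), Nckap1l (1.02) and Csf2rb (0.91), all signalling genes of blood cells, had the smallest p, with the control mean of Vav1 under 5.96.

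Of the ligands that feed or attract macrophages, 4 of 8 measured passed as higher and none as lower, with a median of 0.74. Csf1, a ligand of Csf1r, was at 6.90 and 6.72 in controls and at 7.49 and 7.68 in knockouts, a difference of 0.78 (adjusted p = 0.0137 in limma). Il34, the other ligand of Csf1r, was at 6.17 and 6.06 against 6.15 and 6.15, a difference of 0.04. All 4 Il34 values lay under 6.96, within the range of background, so little can be read from them. The control mean of Csf1 (6.81) also lay under 6.96. Ccl2, the ligand of Ccr2, was at 5.36 and 5.61 against 6.87 and 7.56, a difference of 1.73 (adjusted p = 0.0087 in limma). Ccl5 (0.96) and Ccl3 (0.76) passed too. The control means of Ccl2 and Ccl3 lay under 5.96, so the sizes of their differences are uncertain.

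**Figure D3:**
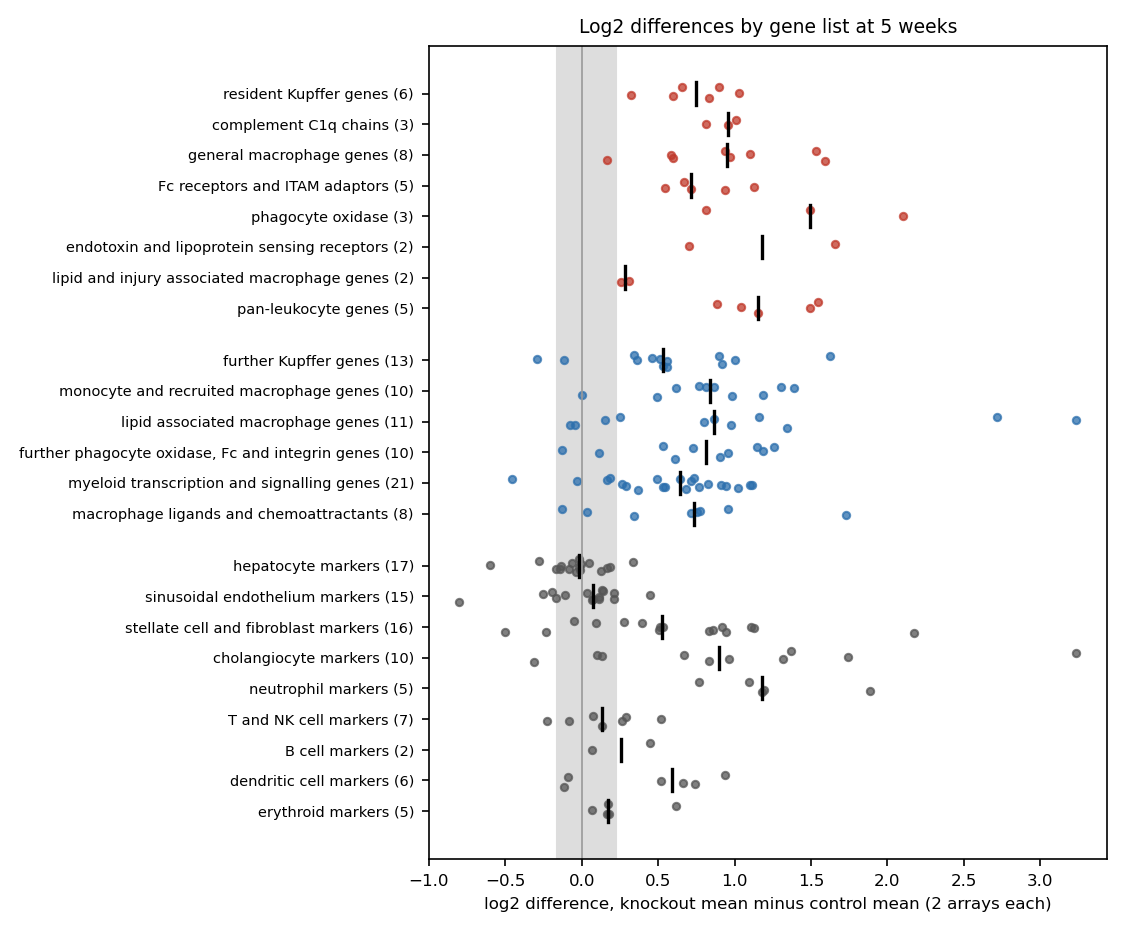
Log2 difference, knockout mean minus control mean, of each measured gene (x axis) by list, with the number of measured genes in brackets; red points are the 34 members by role, blue points further myeloid lists and grey points markers of other liver cells, and black bars are medians. The grey band holds the middle quartiles of the 12890 named genes, -0.16 to 0.23; every member list has its median to the right of it, while hepatocyte and endothelial markers have theirs inside it.

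Markers of cells other than leukocytes gave a scale for these values. Hepatocyte markers had a median of -0.02 over 17 genes, with summed signals of 114880 to 119970 across all 4 livers. The asialoglycoprotein receptor gene Asgr1 (-0.60) passed as lower and none of the 17 passed as higher. Asgr2 (-0.28) had both knockout arrays below both control arrays and did not pass. Both knockout arrays lay below in 5 of the 17 and above in 3, against 27% and 32.1% of named genes. Stellate cell and fibroblast markers passed as higher in 8 of 16 and as lower in 1, with a median of 0.53 and summed signals of 5575 and 6773 against 8896 and 9000. Lum (2.18) and Dpt (1.13), both matrix proteins, led that list, from control means under 6.96. Colec11 (-0.505, adjusted p = 0.0413 in limma) was the gene that passed as lower. Acta2 (-0.235), Tagln (-0.05) and Des (0.095) did not pass, while 13 of the 16 had a higher knockout mean. Cholangiocyte markers, Spp1 included, passed as higher in 7 of 10 measured, with a median of 0.90. Of those that passed, 3 had control means under 5.96.

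**Figure D4:**
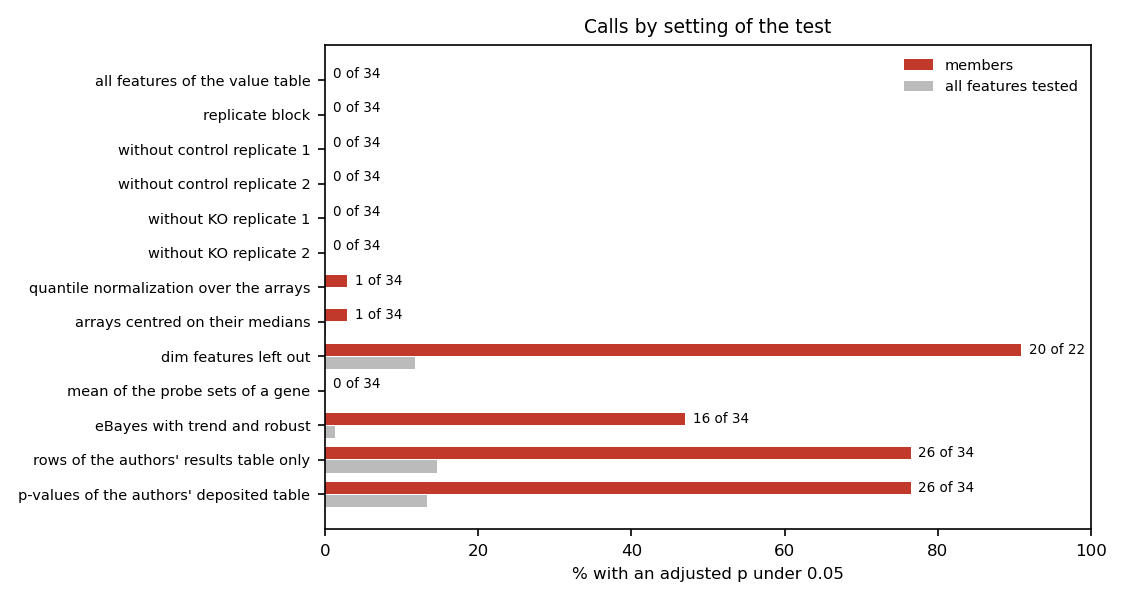
Share of members (red, with counts) and of all features tested (grey) with an adjusted p under 0.05 on the x axis, for each setting of the test in rows. Members called range from 0 of 34 over all features of the value table to 26 of 34 over the rows that the authors kept and 20 of 22 with dim features left out, where Cd52 and Ptprc remain only through their knockout values.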

How the data were processed

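Liver RNA of 2 control and 2 knockout samples at 5 weeks was measured on Affymetrix arrays. The deposited values are log2 signals per probe set, given to 2 decimals, made with Affymetrix Expression Console and RMA per the submitters' processing notes; neither versions nor the genome build are stated in the labels. The authors' results table, per the file headers, holds log2 means per genotype, a ratio (fold of knockout over control) and a p-value whose test is not given. It has 14996 of the 35556 probe sets, kept by a rule not given. The higher group mean is at least 4.94 in each, and the lowest control mean of a member was 5.535. Without the rule, whether a member was kept only through its knockout values cannot be told. Probe set IDs paired both tables, whose group means differed by at most 0.005. Another 4 columns of single arrays match no sample label and were not used.

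For 12890 genes with a single symbol the probe set with the highest mean over all arrays was kept. The other 20648 features are probe sets without a single symbol here, some of which may be controls. limma 3.58.1 in R 4.3.3 (lmFit, eBayes, two-sided) was fitted to all 33538 features, as planned, and tested on simulated data; values had no filter. The planned 8-week fits were not made, as its probe sets have no gene names here. Array number limits the precision, and p-values measure only the spread between these samples. All 34 members are named; of other myeloid lists up to 4 genes with the smallest p, of marker lists up to 2, plus exceptions chosen after their values were seen. The members and lists were chosen with earlier results of these data known. Alternatives covered pairing, left-out arrays, scaling, dim features, probe sets, the variance model, the rows tested and the authors' p-values.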

Additional observations from a re-analysis of the deposited data

How the results depend on the processing

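The members' median depended little on the processing, while the calls depended on it strongly, over 12 other settings listed beforehand and 5 chosen after seeing the data. The median over the 34 members was 0.92 as reported, 0.81 to 0.98 with an array left out, 0.91 with quantile normalization and 0.94 with centred arrays; over the 22 left by the filter on dim features it was 1.02. The authors' p-values give no median of their own. Calls, in all and among members, were 0 and 0 as reported and with the mean of a gene's probe sets, 50 (42 higher, 8 lower) and 1 with quantile normalization, 53 (46 higher, 7 lower) and 1 with arrays centred on their medians, 422 (336 higher, 86 lower) and 16 with eBayes trend and robust settings, 1199 (790 higher, 409 lower) and 20 of 22 with dim features left out (18 of 20 without Cd52 and Ptprc, left only through their knockout values), 1902 (1370 higher, 532 lower) and 26 over the rows of the authors' results table, and 1725 (1247 higher, 478 lower) and 26 with the p-values of the authors' deposited table. The single member called under quantile normalization and under median centring was Cybb. The fit to the kept rows tested fewer features and had a smaller prior variance (0.0151 against 0.0206) with more prior degrees of freedom (4.10 against 2.64).

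With any single array left out, which leaves 1 sample in a genotype that is assumed to vary like the other pair, limma called 0 features and 0 members, over all features and over the kept rows alike, the latter chosen after seeing the data; without control replicate 1 Lyz1 turned to -0.04 and Mrc1 to -0.055, and with each array left out in turn they ran from -0.04 to 1.23 and from -0.055 to 0.385. The resident minus other gap was -0.20 as reported and ran from -0.332 to -0.048 with an array left out. Replicate numbers are shared between the groups, but nothing in the labels pairs the samples, and same-numbered samples deviated together only weakly (correlation 0.0963 across features). With the replicate block, 0 features and 0 members were called over all features (adjusted p of members 0.222 to 0.775), and 803 features (624 higher, 179 lower) and 21 members over the kept rows, an alternative chosen after seeing the data. Alternatives planned for 8 weeks were not run, since those probe sets have no gene names here.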
